A study of Mus musculus with 51 samples.

Results

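The 10 genes described here encode the hypoxia-inducible factor (HIF) subunits and the proteins that act on them directly: the alpha subunits Hif1a, Epas1 and Hif3a, the beta subunit Arnt, the ubiquitin ligase subunit Vhl, the prolyl hydroxylases Egln1, Egln2 and Egln3, the asparaginyl hydroxylase Hif1an, and the transcriptional regulator Cited2. They were chosen by gene name, with earlier results of these data known, and all 10 were found among the 48321 gene symbols of both count tables. Expression was measured by 3′ tag sequencing of RNA from whole mouse gastrocnemius, in 51 libraries of 1 animal each, in 10 groups and 2 batches. Batch 1 held the Bmal1 line on 2 diets: on high-fat diet 7 floxed controls (Bmal1fx/fx) and 5 Bmal1KO mice, and on regular chow 4 controls and 3 Bmal1KO mice. Batch 2, all on high-fat diet, held 8 Bmal1fx/fx controls and 4 Bmal1KO mice, 6 Vhlfx/fx controls and 4 VhlKO mice, and 6 Bmal1fx/fx;Vhlfx/fx controls and 4 Bmal1KO;VhlKO mice (double knockouts). Controls carried the floxed alleles of their own line. The Bmal1 deletion is described as specific to skeletal muscle, whereas the libraries came from whole muscle, which also contains vessels, connective tissue and blood cells. The sources used here give neither the Cre driver nor the deleted exons, age or time of harvest.

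The depth of the libraries was 8.72 to 14.7 Mcounts (mega-counts) per library for batch 1, and 6.95 to 14.7 Mcounts for batch 2. Levels are counts-per-million values (CPM) on library sizes scaled by the trimmed mean of M-values (TMM) within a batch. Differences are log2 fold changes from edgeR's quasi-likelihood test, ± a standard error derived from that test. A gene was called when its Benjamini-Hochberg adjusted p, over all genes tested, was under 0.05. Intervals were taken from the standard error with the normal distribution. They are approximate and can be narrower than the test implies, so calls rest on the adjusted p alone. Levels are set side by side between batches but were not tested across them, and they are not compared between genes. Of the 10 genes, 9 passed the filter on low counts in both batches; Hif3a did not. Markers of skeletal muscle fibres were abundant in every library: their sum lay between 100385 and 171561 CPM in batch 2 and between 119005 and 165858 CPM in batch 1. Arntl, the gene of BMAL1, fell in batch 1 Bmal1 knockouts on high-fat diet (−1.02 ± 0.22, adjusted p = 0.0025) and in the joint fit of both batches (−0.64 ± 0.12, adjusted p = 1.3e-04), but did not pass in batch 2 Bmal1 knockouts alone (−0.24 ± 0.13, adjusted p = 0.24). It fell in double knockouts (−0.48 ± 0.13, adjusted p = 0.0021; −0.13 with no scaling, adjusted p = 0.4). In Vhl knockouts Arntl was at −0.27 ± 0.13 (adjusted p = 0.097), and at −0.40 without Vhl knockout 1 (adjusted p = 0.023). Its double minus Vhl effect was −0.21 ± 0.18 (adjusted p = 0.53). The batch 2 minus the batch 1 Bmal1 effect on Arntl was 0.78 ± 0.20 (unadjusted p = 4.2e-04, adjusted p = 0.7). In Bmal1 knockouts on chow −0.91 ± 0.28 did not pass (adjusted p = 0.082). It passed with DESeq2 (adjusted p = 0.032), with no filter (adjusted p = 4.0e-04) and without chow control 4 (−1.10, adjusted p = 0.0088). With animal numbers as a replicate block it passed as well (−0.96, adjusted p = 0.047). A 3′ tag can lie outside the deleted part of a gene, so neither Arntl nor Vhl checks the labels here.

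HIF is a heterodimer of an oxygen-regulated alpha subunit and the stable beta subunit Arnt. When oxygen is available, the Egln enzymes hydroxylate prolines of the alpha subunit, Vhl binds the hydroxylated protein, and the ligase it belongs to marks the subunit for destruction; Hif1an hydroxylates an asparagine and so blocks recruitment of the coactivators p300 and CBP, for which Cited2 competes. Egln1 and Egln3 are themselves well known HIF target genes, and skeletal muscle relies on the pathway to adjust glycolysis to oxygen supply. HIF and the clock factor BMAL1 belong to the same family of basic helix-loop-helix PAS proteins, and the series' title places the study on a BMAL1-HIF axis in obesity.

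The bases before the start sites of the 3 prolyl hydroxylases are shown because Egln1 and Egln3 rose together after Vhl loss and Egln2 did not pass the test. RefSeq's promoters on GRCm38.p6 held a window for 9 of the 10 genes. The letters ACGTG and GCGTG, the core of the HIF response element, were searched on both strands in the 250 bases before each start and are in capitals. The E-box CACGTG, bound by BMAL1 with CLOCK, contains ACGTG on both strands, so the searches overlap.
Egln3, chr12:54203875-54204124, minus strand: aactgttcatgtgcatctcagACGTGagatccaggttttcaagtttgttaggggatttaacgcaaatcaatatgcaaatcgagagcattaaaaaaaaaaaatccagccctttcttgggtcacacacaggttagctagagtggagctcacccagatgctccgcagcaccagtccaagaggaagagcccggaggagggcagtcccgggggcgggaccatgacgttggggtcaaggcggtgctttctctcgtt
Egln1, chr8:124949325-124949504, minus strand: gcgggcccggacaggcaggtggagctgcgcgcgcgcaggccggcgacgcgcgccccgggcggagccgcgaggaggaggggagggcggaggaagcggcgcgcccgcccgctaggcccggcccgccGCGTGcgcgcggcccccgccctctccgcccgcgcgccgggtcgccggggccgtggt
Egln2, chr7:27166803-27167052, minus strand: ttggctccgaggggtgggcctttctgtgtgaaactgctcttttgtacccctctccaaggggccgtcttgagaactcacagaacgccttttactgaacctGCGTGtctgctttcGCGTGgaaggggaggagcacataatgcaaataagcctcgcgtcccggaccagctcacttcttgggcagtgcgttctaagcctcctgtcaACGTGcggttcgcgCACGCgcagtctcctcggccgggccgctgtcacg
The Egln3 window held 1 match, 229 bases before the start. The Egln1 window held 2, at 126 and 68 bases before the RefSeq start; the nearer one lies within the longer GENCODE transcript, and that stretch is not printed. The first of the Egln2 windows held 4 matches, at 151, 137, 48 and 34 bases before the start. Of all 32851 windows of this length, 38.6% held ACGTG or GCGTG, 16.6% ACGTG, 28.2% GCGTG and 6.0% CACGTG. Among the other members, Hif1a and Cited2 each held 1 CACGTG, while Vhl and Hif1an held none of the letters searched. The Hif1a window, from 73907617 to 73907866, lay wholly inside the GENCODE gene, which starts at 73901375. It is therefore not the stretch before that start. Whether any of these matches is bound, or plays a part in the levels described here, was not tested.

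More members were called where Vhl was deleted than in the other comparisons of a knockout or a diet, as were more genes in general. In Vhl knockouts 5 of the 9 tested members were called, 3 higher (Egln3, Egln1 and Epas1) and 2 lower (Hif1an and Vhl), where 37.2% of all 13093 genes tested were called, 17.7% higher and 19.5% lower. In double knockouts 6 of 9 were called, the same 3 higher and 3 lower (Hif1a, Arnt and Vhl), with 35.4% of all genes called, 17.4% higher and 18.1% lower. The median absolute log2 fold change of the 9 members was 0.48 in Vhl knockouts and 0.60 in double knockouts, beside 0.32 and 0.30 over all genes. The mitochondrially encoded share of counts was 32.2 ± 3.49% (SD, n = 4) against 37.2 ± 2.29% (n = 6) in the Vhl line, and 19.7 ± 3.04% (n = 4) against 27.4 ± 2.64% (n = 6) in the double line; in fits without mitochondrially encoded transcripts Egln3, Egln1 and Epas1 were called higher in both lines.

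After Bmal1 loss on high-fat diet 1 of 9 members was called in each batch. It was Cited2, lower, in batch 1, with 9.00% of all genes called (3.82% higher and 5.18% lower), and Egln3, lower, in batch 2, with 13.9% called (6.94% higher and 6.96% lower). On chow, edgeR called 0 of the 9 in Bmal1 knockouts (3.84% of all genes called, 1.55% higher and 2.29% lower); 1 had an unadjusted p under 0.05, and DESeq2 and limma also called 0. In a joint fit of the batches, adjusted for batch, 3 of 9 were called, all lower: Egln1, Egln2 and Cited2 (22.4% of all genes called, 11.1% higher and 11.3% lower). The Bmal1 effect differed between the batches for 0 of 9 members by edgeR, with 0 at an unadjusted p under 0.05 (0.00796% of all genes called, all of it higher). Between diets 1 of 9 was called in controls, Egln3, higher (2.37% of all genes called, 1.51% higher and 0.854% lower), and 1 of 9 in Bmal1 knockouts, Cited2, lower (3.28% called, 1.72% higher and 1.57% lower). These counts of 0 or 1 do not set the members apart from those backgrounds. The sum of 9 lymphocyte markers was higher in every Bmal1 knockout library than in every control of its comparison, at 205 to 342 CPM against 40.0 to 84.2 in batch 1 on high-fat diet, 217 to 279 against 35.5 to 145 on chow, and 316 to 349.6 against 42.3 to 142 in batch 2. In double knockouts it was 94.3 to 182 CPM against 47.8 to 55.3. Of the 9 markers 2 could be tested, Ighm, an immunoglobulin heavy chain gene, and Ptprc. Ighm alone was called in the 3 Bmal1 comparisons (2.55 ± 0.21 in batch 1 on high-fat diet), and it made up most of the sum, while the B cell gene Cd79a was at 0 in 4 of 5 batch 1 high-fat knockouts and in all 4 batch 2 Bmal1 knockouts. The part of these transcripts in the Bmal1 results was not tested.

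**Figure D1:**
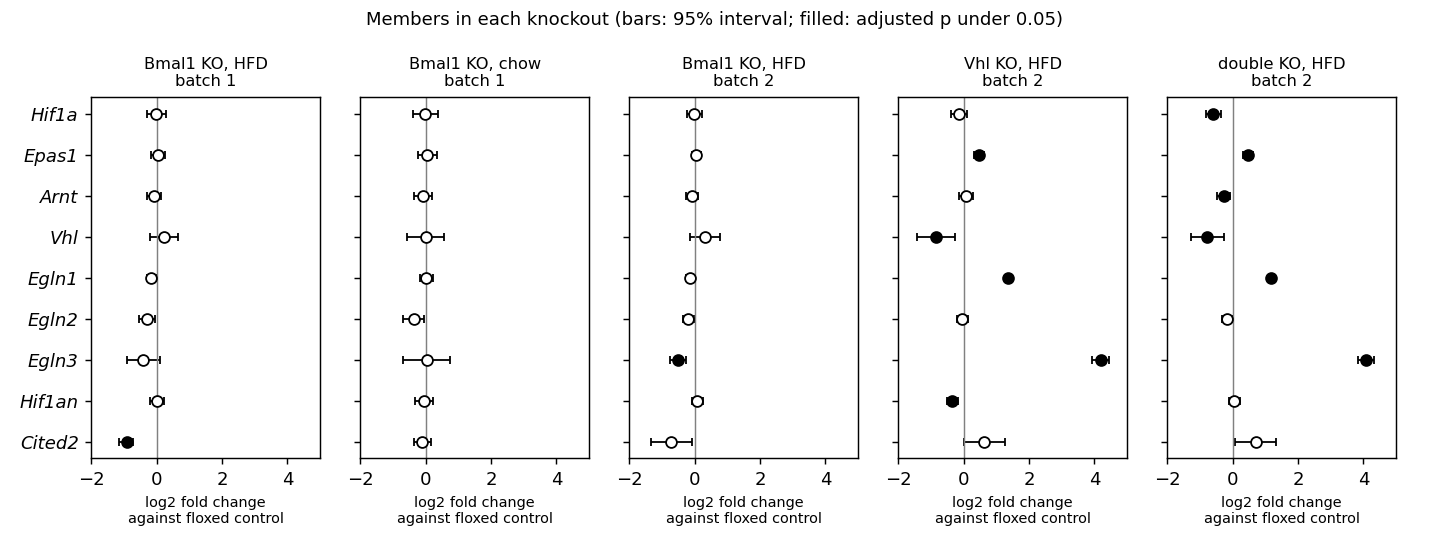
Log2 fold change of the 9 tested genes (rows) in each knockout against its own floxed controls (panels), with approximate 95% intervals. Filled points passed an adjusted p of 0.05. The intervals can be narrower than edgeR's test implies: for Cited2 in Vhl knockouts 0.01 to 1.26, where that test gave an unadjusted p of 0.058. Egln3 stands at 4.19 and 4.07 and Egln1 at 1.37 and 1.18 in the Vhl and double knockouts, while in the Bmal1 knockouts the filled points are Cited2 in batch 1 on high-fat diet and Egln3 in batch 2.

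Egln3, a prolyl hydroxylase gene on chromosome 12 from 54178981 to 54203860 (GRCm38), had the largest change of any member. The 4 Vhl knockouts held 784, 712, 745 and 740.0 CPM, and their 6 controls ranged from 35.2 to 49.7 CPM with a median of 40.1. The 4 double knockouts held 792, 699, 633 and 731 CPM, and their controls ranged from 35.0 to 46.5 with a median of 43.0. Every knockout library lay above every control, with no overlap in either line. The difference was 4.19 ± 0.13 in Vhl knockouts (18.3-fold, adjusted p = 6.3e-21) and 4.07 ± 0.13 in double knockouts (16.8-fold, adjusted p = 4.7e-21). The change did not differ detectably between the lines. The double minus the Vhl effect was −0.12 ± 0.18, with an approximate 95% interval from −0.47 to 0.23 (adjusted p = 0.74).

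After Bmal1 loss Egln3 fell in batch 2 and did not pass in the other Bmal1 comparisons. In batch 2 the Bmal1 knockouts held 42.0, 28.9, 24.6 and 25.6 CPM, and their 8 controls ranged from 32.3 to 53.1 with a median of 41.4. Animals are numbered throughout by their sample titles, and the column headers of the counts number knockouts 7, 8 and 9 of batch 2 otherwise. Knockouts 7, 8 and 9 were below all controls, and knockout 6 was within their range. The difference was −0.50 ± 0.13 (adjusted p = 0.0067), −0.69 without knockout 6, and −0.41 (adjusted p = 0.054) without knockout 8; a fit to these 2 groups alone gave adjusted p = 0.072. In batch 1 on high-fat diet, knockouts held 22.6, 26.4, 15.1, 29.3 and 19.5 CPM against a range of 14.5 to 47.9 in controls (median 30.9), and the difference of −0.41 ± 0.26 did not pass (adjusted p = 0.46). With both batches it was −0.44 ± 0.16 (adjusted p = 0.053), and it passed with DESeq2 (−0.44, adjusted p = 0.026), without the robust option (adjusted p = 0.015), without mitochondrially encoded transcripts or with the stricter filter (adjusted p = 0.045 each), and without batch 1 control 5 or 7 or knockout 4, or batch 2 control 8 or knockout 6 (−0.53 to −0.48, adjusted p from 0.011 to 0.042). The batches did not differ detectably (−0.10 ± 0.33, adjusted p = 1). On chow the value was 0.03 ± 0.37 (adjusted p = 0.99; 12.4 ± 2.22 CPM, n = 3, against 12.2 ± 3.86, n = 4; SD). In batch 2 the Vhl effect exceeded the Bmal1 effect by 4.70 ± 0.19 (adjusted p = 7.0e-18).

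Egln3 was also the member called between diets in controls. Chow controls held 14.8, 6.57, 13.0 and 14.6 CPM, and controls on high-fat diet ranged from 14.5 to 47.9 with a median of 30.9. Only high-fat control 5, at 14.5 CPM, was within the chow range. The difference was 1.30 ± 0.30 (adjusted p = 0.033). It rested on few libraries: without high-fat control 2 or 4, or without any 1 of the 4 chow controls, it lay between 1.09 and 1.41 with adjusted p from 0.056 to 0.097. In Bmal1 knockouts every high-fat library (15.1 to 29.3 CPM) was above every chow library (13.7, 13.6 and 9.83 CPM), but the difference of 0.87 ± 0.35 did not pass (adjusted p = 0.22), except in a fit to those 2 groups alone (0.88, adjusted p = 0.016). The mitochondrially encoded share of counts differed between diets as well, at 37.7 ± 3.15% (SD, n = 7) in high-fat and 28.5 ± 4.10% (SD, n = 4) in chow controls; its part in the result was not tested.

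Egln1, the main prolyl hydroxylase of the alpha subunits in most tissues, lies on chromosome 8 from 124908587 to 124949324. The Vhl knockouts held 513, 463, 461 and 461 CPM, against 161 to 198 in controls (median 187). The double knockouts held 436, 468, 438 and 457 CPM, against 188 to 213 in controls (median 195). Neither line had an overlap. The difference was 1.37 ± 0.06 (2.59-fold, adjusted p = 1.0e-23) in Vhl knockouts and 1.18 ± 0.06 (2.27-fold, adjusted p = 1.7e-21) in double knockouts. The double minus the Vhl effect was −0.19 ± 0.09 and did not pass (adjusted p = 0.17).

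After Bmal1 loss on high-fat diet Egln1 was slightly lower. Batch 1 high-fat knockouts held 167, 149, 164, 149 and 156 CPM, and controls ranged from 164 to 185 with a median of 178; batch 2 knockouts held 193, 169.7, 172 and 165 CPM, and controls ranged from 184 to 211 with a median of 188. The groups overlapped in both batches. The differences of −0.16 ± 0.08 (adjusted p = 0.23) and −0.13 ± 0.06 (adjusted p = 0.13) did not pass within a batch (without batch 2 knockout 6, −0.18 with adjusted p = 0.05), and −0.14 ± 0.04 passed with both (adjusted p = 0.015). With no scaling of library sizes the pooled value was −0.03 (adjusted p = 0.67), and with no filter on low counts it kept its size but not its call (adjusted p = 0.064). On chow the difference was 0.02 ± 0.10.

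Egln2, the third prolyl hydroxylase, lies on chromosome 7 from 27158658 to 27166802. The Vhl knockouts held 58.7, 82.1, 59.6 and 59.9 CPM, against 56.8 to 81.9 in controls (median 65.1). Apart from knockout 2 they sat in the lower part of the control range, and the difference was −0.04 ± 0.09 (adjusted p = 0.74); with no scaling it was 0.31 (adjusted p = 0.015). In double knockouts all 4 libraries (71.9, 69.8, 69.1 and 71.2 CPM) lay below all 6 controls (72.4 to 84.3, median 79.0), by a small margin. The difference there, −0.17 ± 0.09, did not pass (adjusted p = 0.12). After Bmal1 loss Egln2 stood at −0.29 ± 0.12 in batch 1 (39.4 ± 3.81 CPM, n = 5, against 48.0 ± 10.7, n = 7; SD) and −0.20 ± 0.08 in batch 2 (65.8 ± 3.03, n = 4, against 75.3 ± 8.04, n = 8), with adjusted p of 0.18 and 0.12 (in batch 1 without control 3, −0.37 with adjusted p = 0.026). Both batches together gave −0.23 ± 0.08 (adjusted p = 0.031), but without batch 1 knockout 3 or 4 adjusted p was 0.051 and 0.055, and with no scaling the value was −0.12 (adjusted p = 0.24). On chow the value was −0.37 ± 0.16 (adjusted p = 0.28).

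**Figure D2:**
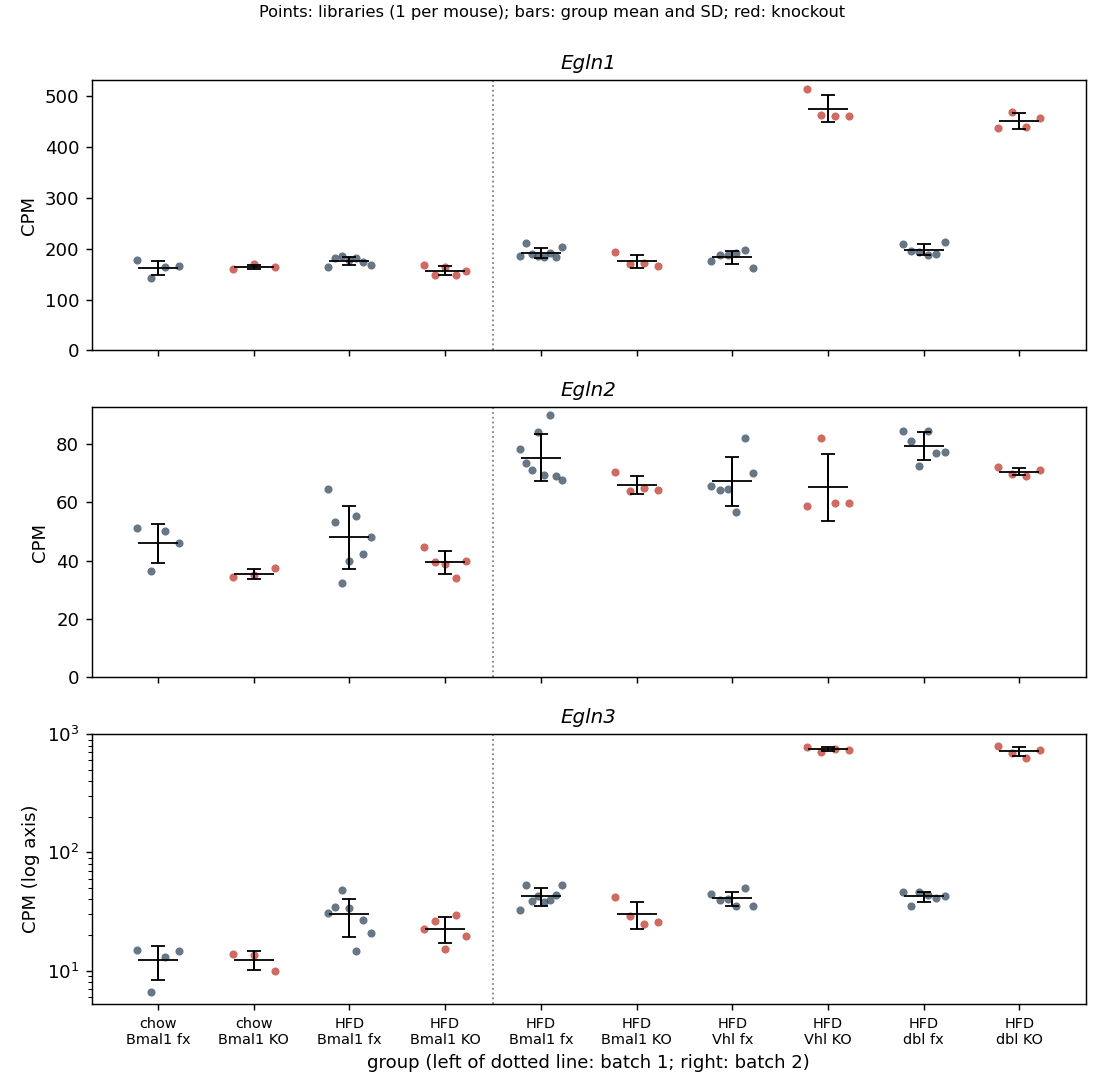
CPM of Egln1, Egln2 and Egln3 in every library (points, 1 mouse each) by group, with group mean and SD; the Egln3 axis is logarithmic and levels are not comparable across the dotted line between batches. Egln3 lay between 633 and 792 CPM in the 8 libraries with Vhl deleted and at 53.1 CPM or less in all others, and Egln2 showed no such separation.

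Epas1, an alpha subunit gene prominent in endothelial cells, lies on chromosome 17 from 86753700 to 86833410. The Vhl knockouts held 77.7, 66.4, 74.7 and 79.4 CPM, and their controls ranged from 50.9 to 57.2 with a median of 52.6. The double knockouts held 79.5, 71.1, 69.9 and 60.0 CPM, and their controls ranged from 48.1 to 54.6 with a median of 50.0. Each knockout library was above every control of its line. The difference was 0.48 ± 0.08 (1.40-fold, adjusted p = 1.6e-06) in Vhl knockouts and 0.47 ± 0.08 (1.39-fold, adjusted p = 1.9e-06) in double knockouts. Endothelial markers rose in the same libraries: 12 of 12 were called higher in each line, with a median of 1.13 and 1.01. Their summed level was 519 to 640.2 CPM in Vhl knockouts against 273 to 305 in controls, and 479.9 to 571 CPM in double knockouts against 262 to 281, with no marker at 0. Smooth muscle and pericyte markers rose as well (5 of 6 and 6 of 6). For both sets of markers the background is 17.7% of all genes called higher in Vhl knockouts and 17.4% in double knockouts. In whole muscle, more cells of a type and more RNA per cell cannot be told apart, and the part of endothelial RNA in the Epas1 result was not tested. Bmal1 loss gave 0.05 ± 0.11 in batch 1, 0.05 ± 0.07 in batch 2 and 0.05 ± 0.14 on chow, none of them called.

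Hif1a, the alpha subunit gene on chromosome 12 from 73901375 to 73947530, fell in double knockouts. These held 9.21, 10.1, 6.78 and 8.45 CPM, and their controls ranged from 11.3 to 13.8 with a median of 13.4, with no overlap. The difference was −0.60 ± 0.12 (adjusted p = 1.1e-04); with no scaling it was −0.25 (adjusted p = 0.094). In Vhl knockouts the values of 11.7, 7.47, 9.08 and 10.6 CPM overlapped those of controls (9.82 to 11.4, median 10.9), and −0.15 ± 0.13 did not pass (adjusted p = 0.35). The double minus the Vhl effect, −0.44 ± 0.17, did not pass (adjusted p = 0.11), so the lines are not shown to differ; without Vhl knockout 2 it was −0.56 (adjusted p = 0.026). The double minus the Bmal1 effect was −0.58 ± 0.17 (adjusted p = 0.0096), and −0.31 (adjusted p = 0.19) with no scaling. Bmal1 loss alone gave −0.01 ± 0.15 in batch 1, −0.01 ± 0.11 in batch 2 and −0.01 ± 0.20 on chow.

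Arnt, the beta subunit gene on chromosome 3 from 95434388 to 95497240, had the smallest spread of group means of the 10 genes (SD 0.119 on the log2 scale). Double knockouts held 15.8, 18.3, 15.9 and 19.6 CPM against 17.1 to 26.2 in controls (median 21.2), and the groups overlapped. The difference of −0.28 ± 0.10 passed narrowly (adjusted p = 0.035), but turned to 0.08 (adjusted p = 0.52) with no scaling. Without control 1, 3 or 6, or double knockout 1 or 3, it lay between −0.26 and −0.21, with adjusted p from 0.06 to 0.13. In Vhl knockouts the value was 0.07 ± 0.11 (with no scaling 0.42, adjusted p = 5.9e-04), in the 3 Bmal1 comparisons −0.08 in each, and between diets −0.23 ± 0.12 in controls and −0.24 ± 0.13 in Bmal1 knockouts (adjusted p = 0.4 in both).

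Hif3a, the third alpha subunit gene, on chromosome 7 from 17031507 to 17062427, was barely detected. It had 0 to 8 counts per library and between 2 and 12 in a whole group, and most libraries were at or under the floor of 3 counts. It did not pass the filter on low counts, so its differences were not tested here.

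**Figure D3:**
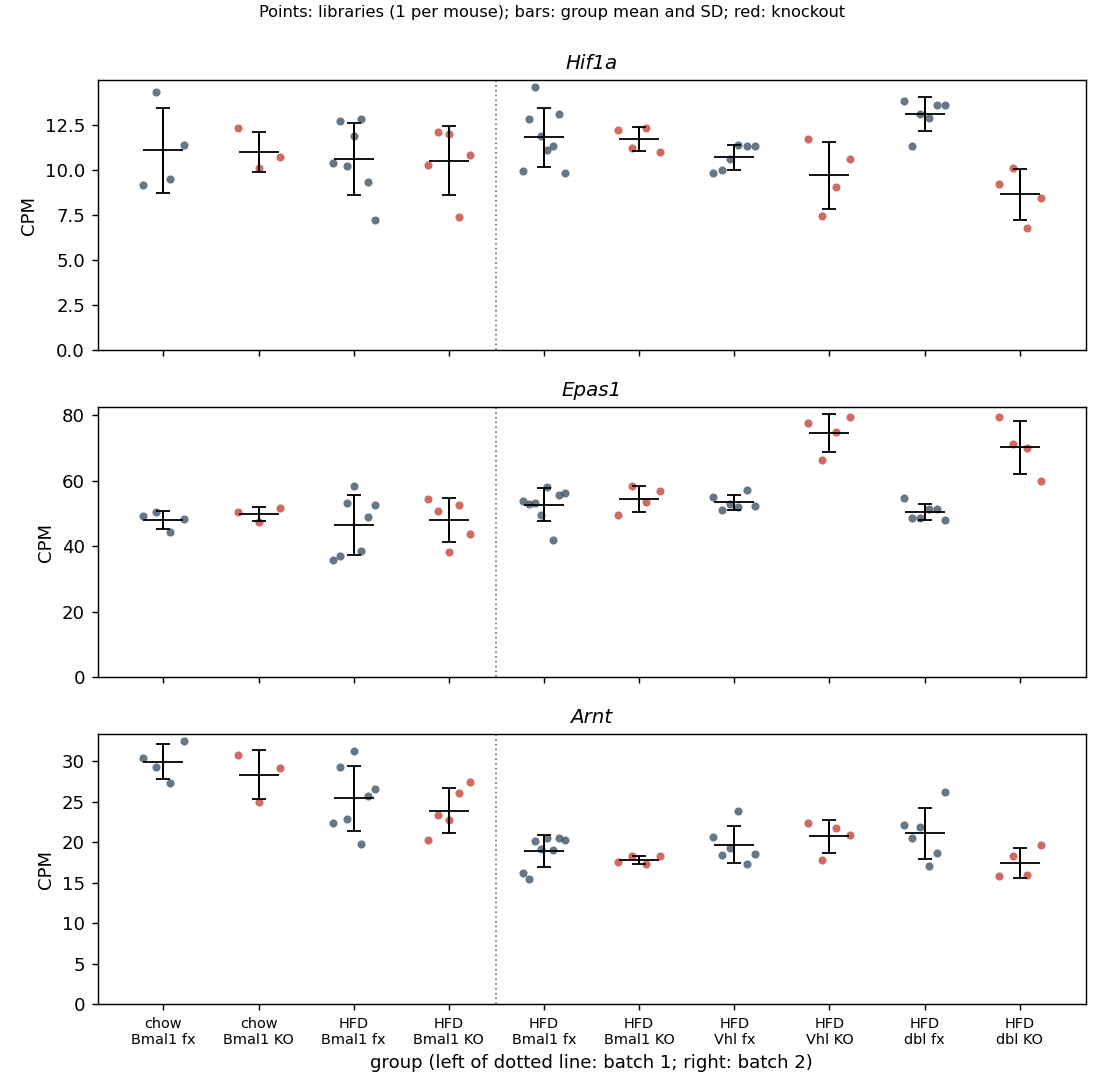
CPM of Hif1a, Epas1 and Arnt in every library (points) by group, with group mean and SD; levels are not comparable across the dotted line between batches. Epas1 was at 60.0 to 79.5 CPM in the 8 libraries with Vhl deleted and at 58.5 or below elsewhere, and Hif1a was at 6.78 to 10.1 CPM in double knockouts against 11.3 to 13.8 in their controls.

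Vhl, the gene of the substrate-binding subunit, on chromosome 6 from 113623959 to 113631633, had few counts, 8 to 74 per library. Vhl knockouts held 0.796, 2.69, 1.80 and 1.46 CPM against 1.69 to 5.09 in controls (median 2.70), and double knockouts 3.84, 2.26, 2.70 and 1.64 CPM against 3.48 to 5.62 (median 4.14). The ranges overlapped in both lines, and tags remained in every knockout library. The differences were −0.85 ± 0.30 (adjusted p = 0.022) and −0.78 ± 0.26 (adjusted p = 0.018). Both calls were fragile: with no scaling they were −0.50 (adjusted p = 0.18) and −0.42 (adjusted p = 0.21). The Vhl call was lost without Vhl-line control 1 or 6 or Vhl knockout 1 or 4 (−0.77 to −0.63, adjusted p from 0.063 to 0.11), and the double knockout call without double knockout 2 or 4 (−0.72 and −0.61, adjusted p = 0.057 and 0.087). Bmal1 loss gave 0.22 ± 0.22 in batch 1 and 0.32 ± 0.23 in batch 2, neither called. The Vhl minus the Bmal1 effect was −1.17 ± 0.38 (adjusted p = 0.018), and −0.94 (adjusted p = 0.064) without Vhl knockout 1; the double minus the Bmal1 effect was −1.10 ± 0.35 (adjusted p = 0.024), and −1.04 to −0.94 (adjusted p from 0.054 to 0.073) without Bmal1 knockout 9 or double knockout 2 or 4. A list for the ligase held the other subunits Tceb2 and Tceb1 (the elongins), Cul2 and Rbx1, and also Nedd8 and Ube2m, which are not subunits. In Vhl knockouts 1 of these 6 rose and 2 fell: Nedd8 (0.35 ± 0.07), and Cul2 (−0.62 ± 0.09) and Tceb2 (−0.36 ± 0.07), with 37.2% of all genes called in that comparison. The counts were the same in double knockouts, where 35.4% of all genes were called, with Nedd8 at 0.26 ± 0.07, Cul2 at −0.30 ± 0.09 and Tceb2 at −0.40 ± 0.07.

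Hif1an, the asparaginyl hydroxylase gene on chromosome 19 from 44562850 to 44576274, fell in Vhl knockouts and did not pass in double knockouts. Vhl knockouts held 59.8, 94.2, 68.0 and 63.7 CPM, and their controls ranged from 82.4 to 110.2 with a median of 87.5. Knockouts 1, 3 and 4 were below all controls, and knockout 2 was inside their range. The difference was −0.35 ± 0.09 (adjusted p = 0.0015), but 0.01 (adjusted p = 0.96) with no scaling. Double knockouts held 93.4, 111, 109 and 108 CPM, against 94.4 to 107 in controls (median 104), and the difference was 0.05 ± 0.09 (adjusted p = 0.7), but 0.40 (adjusted p = 8.8e-04) with no scaling, so the call in each line depended on the scaling. The double effect exceeded the Vhl effect by 0.40 ± 0.12 (adjusted p = 0.033). That call was lost without any 1 of 10 libraries: double-line controls 2 or 3, double knockouts 2, 3 or 4, Vhl-line controls 4 or 5, and Vhl knockouts 1, 3 or 4 (0.32 to 0.38, adjusted p from 0.051 to 0.12), as it was with no scaling (0.39, adjusted p = 0.092) and in a fit to these 4 groups alone (0.40, adjusted p = 0.07). Bmal1 loss gave 0.02 ± 0.11 in batch 1, 0.08 ± 0.08 in batch 2 and −0.05 ± 0.14 on chow. In the library of Vhl knockout 2, Vhl, Egln2, Hif1an and Cited2 were each at the highest level of the group.

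Cited2, a competitor of HIF for p300 and CBP and itself a HIF target, on chromosome 10 from 17723218 to 17725674, was the member with the largest fitted difference in Bmal1 knockouts of both batches on high-fat diet. In batch 1 on high-fat diet the knockouts held 37.5, 29.7, 35.7, 35.4 and 29.9 CPM, and the controls ranged from 55.1 to 72.8 with a median of 63.5. The groups did not overlap, and the difference was −0.92 ± 0.11 (adjusted p = 1.6e-07), between −0.97 and −0.88 when any 1 library was left out. On chow the knockouts were spread wide, at 96.6, 50.7 and 70.3 CPM around controls at 70.8, 79.5, 81.9 and 78.6 CPM. The difference on chow was −0.10 ± 0.14 (approximate 95% interval −0.37 to 0.17, adjusted p = 0.86). The difference between the diets in the Bmal1 effect was −0.82 ± 0.18 (unadjusted p = 4.4e-05, adjusted p = 0.19), so it did not pass over all genes. It passed with no filter on low counts (−0.81, adjusted p = 0.0032) and without chow knockout 2 (−1.03, adjusted p = 0.0021), and was −0.56 (adjusted p = 0.56) without chow knockout 1. For that difference edgeR called 0 of 12762 genes, with 575 at an unadjusted p under 0.05, while DESeq2 called 3 and limma 0; none of the 9 members was called by any of these.

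In batch 2 the Bmal1 knockouts held 61.8, 31.7, 30.7 and 26.3 CPM of Cited2, and the controls ranged from 45.5 to 127 with a median of 52.7. Knockouts 7, 8 and 9 were below all controls, knockout 6 was inside their range, and control 8 stood highest at 127 CPM. The difference of −0.72 ± 0.32 did not pass (adjusted p = 0.16), and was −1.06 without knockout 6 and −0.48 without control 8. Over both batches it was −0.82 ± 0.17 (adjusted p = 9.1e-04), and the batches did not differ detectably (0.20 ± 0.34, adjusted p = 0.99). Between diets Cited2 fell in Bmal1 knockouts by 1.11 on the log2 scale (standard error 0.13, adjusted p = 3.1e-06), every high-fat library lying below every chow library. Without chow knockout 1 it was −0.85 (adjusted p = 1.7e-04). In controls the same comparison gave −0.29 ± 0.11 (adjusted p = 0.22).

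Where Vhl was deleted, Cited2 was higher on average but variable. Vhl knockouts held 73.4, 197, 76.3 and 46.6 CPM against 50.8 to 82.7 in controls (median 58.7), so knockout 2 was above the controls, knockouts 1 and 3 among them and knockout 4 below. The difference of 0.63 ± 0.32 did not pass (adjusted p = 0.12), was 0.04 without knockout 2, and passed without knockout 4 (0.87, adjusted p = 0.037) and with no scaling (1.01, adjusted p = 0.011). Double knockouts held 80.6, 128, 101 and 82.2 CPM, all above their controls (45.6 to 78.9, median 57.2), but 0.70 ± 0.32 did not pass either (adjusted p = 0.09); limma on the deposited normalized counts gave 0.69 (adjusted p = 0.035). It also passed in a fit to its own 2 groups (0.70, adjusted p = 0.0099), without the robust option (0.70, adjusted p = 0.041), with no scaling (1.05, adjusted p = 0.0079), and without Vhl knockout 2, which enters only the shared spread (0.69, adjusted p = 0.041). The double effect exceeded the Bmal1 effect by 1.42 ± 0.45 (adjusted p = 0.031) and the Vhl effect exceeded it by 1.35 ± 0.45 (adjusted p = 0.029); these contrasts share the Bmal1 libraries. Each call was lost without Bmal1 knockout 7, 8 or 9, the first also without double knockout 2 (1.26 to 1.35, adjusted p up to 0.077) and the second without Vhl knockout 2 (0.76, adjusted p = 0.17). Both were lost with no filter (1.40 and 1.37, adjusted p = 0.062 and 0.056), and the second in a fit to its 4 groups alone (1.35, adjusted p = 0.06). The departure of the double knockout from the sum of both single effects passed for none of the members: edgeR, DESeq2 and limma each called 0 of 9 (3.79% of all genes were called by edgeR, 2.15% higher and 1.64% lower), and 2, Hif1a (−0.43 ± 0.21) and Hif1an (0.32 ± 0.15), had an unadjusted p under 0.05. Without Vhl knockout 2, Hif1an passed (0.48, adjusted p = 0.012).

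**Figure D4:**
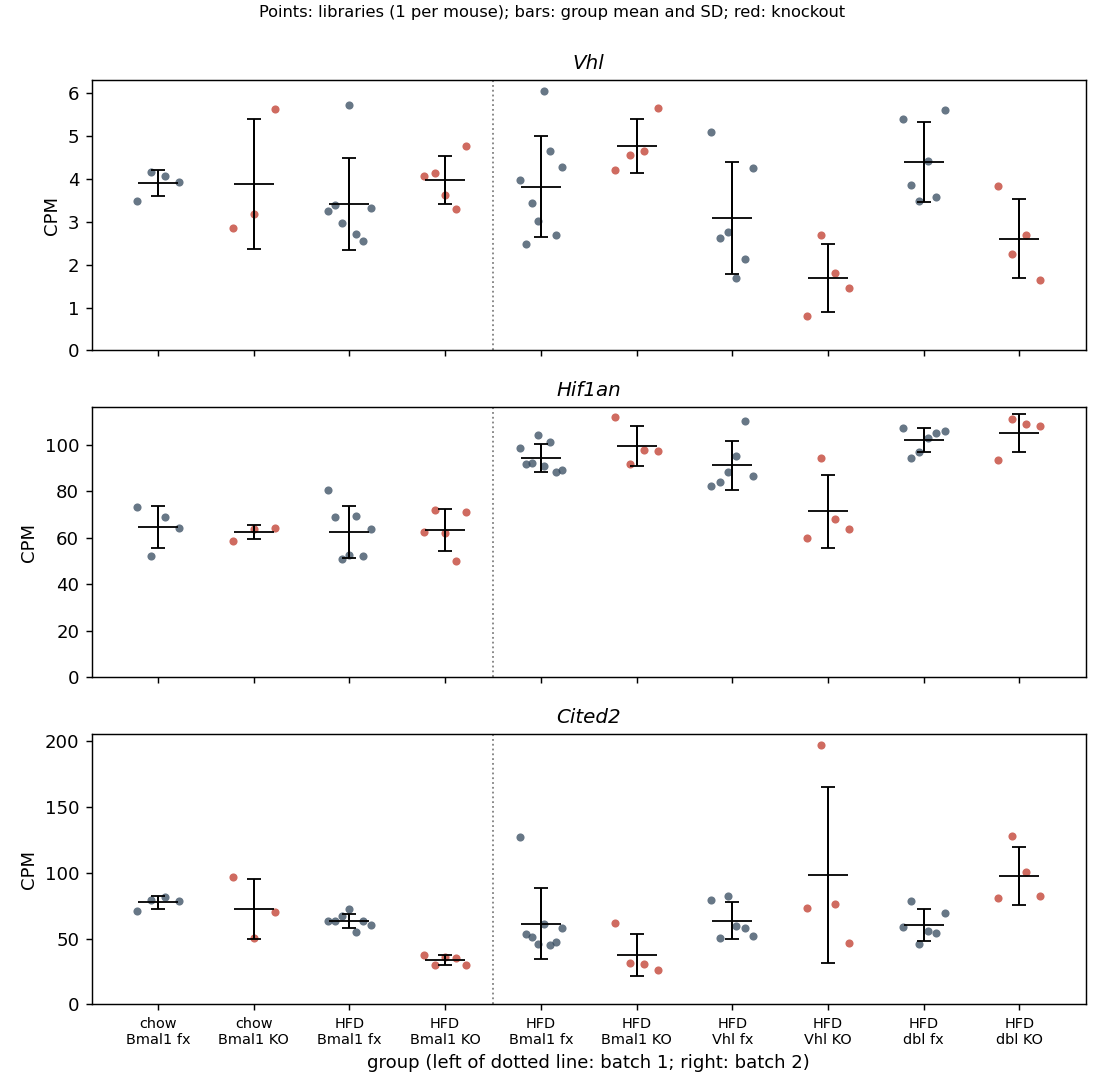
CPM of Vhl, Hif1an and Cited2 in every library (points) by group, with group mean and SD; levels are not comparable across the dotted line between batches. In batch 1 on high-fat diet Cited2 was at 29.7 to 37.5 CPM in Bmal1 knockouts and 55.1 to 72.8 in controls, while single libraries stand apart in batch 2 (127 CPM in a Bmal1-line control and 197 CPM in a Vhl knockout).

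Contrasts between the lines in batch 2 compared the effects of the deletions with each other. Between the Vhl and Bmal1 effects 6 of 9 members differed (25.3% of all genes called, 12.2% higher and 13.1% lower): the Vhl effect was above the Bmal1 effect for Epas1 (0.43 ± 0.11), Egln1 (1.51 ± 0.08), Egln3 and Cited2, and below it for Vhl and Hif1an (−0.42 ± 0.12). With no scaling this contrast was −0.15 (adjusted p = 0.45) for Hif1an and −0.90 (adjusted p = 0.084) for Vhl, while Arnt (0.42, adjusted p = 0.018) and Egln2 (0.42, adjusted p = 0.026) passed; over all genes 3264 were then called higher and 590 lower, against 1594 and 1717. Between the double and Bmal1 effects 6 of 9 differed as well (16.7% called, 7.69% higher and 9.04% lower): the double effect was above for Epas1 (0.42 ± 0.11), Egln1 (1.32 ± 0.08), Egln3 (4.57 ± 0.19) and Cited2, and below for Hif1a and Vhl. With no scaling Vhl was at −0.82 (adjusted p = 0.11), and 2510 genes were called higher and 294 lower, against 1007 and 1184. Between the double and Vhl effects 1 of 9 differed, Hif1an, higher (8.56% called, 4.51% higher and 4.06% lower).

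The wider pathway was read from 3 lists of genes, chosen with earlier results of these data known. Of HIF-induced targets, 27 of 39 tested rose and 3 fell in Vhl knockouts (median 0.70, beside 0.01 over all genes), and 27 rose and 5 fell in double knockouts (median 0.82). Car9, a carbonic anhydrase, stood at 6.17 ± 0.17 and 6.04 ± 0.16, P4ha1, a collagen prolyl hydroxylase, at 2.39 ± 0.09 and 2.11 ± 0.09, and Bnip3, a mitophagy receptor, at 1.51 ± 0.07 and 1.65 ± 0.07. After Bmal1 loss on high-fat diet 2 rose and 9 fell of 38 in batch 1 (median −0.10). Over all genes 3.82% were called higher and 5.18% lower there. In batch 2, 1 rose and 9 fell of 39 (median −0.13), with 6.94% of all genes called higher and 6.96% lower. On chow 1 of these targets rose and 5 fell of 38 (median −0.06), with 1.55% of all genes called higher and 2.29% lower. Of HIF coactivators and partners 0 rose and 5 fell of 11 in Vhl knockouts, among them Ep300, the gene of p300 (−0.43 ± 0.09), and Cited4, a relative of Cited2 (−0.69 ± 0.16). In double knockouts 2 rose and 5 fell: Cited4 was at −1.23 ± 0.16 and Ep300 at −0.37 ± 0.09, while the clock factors Clock (0.76 ± 0.08) and Npas2 (1.72 ± 0.35) rose. After Bmal1 loss on high-fat diet 1 of this list rose and 2 fell of 10 in batch 1, and 2 rose and 1 fell of 11 in batch 2. On chow 1 rose and 0 fell of 10. Over all genes 9.00%, 13.9% and 3.84% were called in these 3 Bmal1 comparisons. Of 15 other genes that control HIF protein, 1 rose and 3 fell in Vhl knockouts, and 3 rose and 5 fell in double knockouts. Over all genes 37.2% were called in Vhl knockouts and 35.4% in double knockouts, the background for each list in those comparisons. Usp28, a deubiquitinase, fell in both (−0.44 ± 0.12 and −0.61 ± 0.12). Muscle fibre markers moved with these groups too: 8 of 12 fell and 1 rose in Vhl knockouts, and 9 of 12 fell and 1 rose in double knockouts (19.5% and 18.1% of all genes were called lower), and their part in the members' values was not tested.

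For the 4 members whose group means varied most, the 3 genes with the most similar levels over the 51 libraries were found among 7546 genes, from log2 CPM centred within each batch. Egln3 was closest to Mif, a cytokine gene (r = 0.959, Spearman's rho = 0.851), P4ha1 (r = 0.942) and Fam63b (r = 0.941), and Egln1 to Mif (r = 0.979), Bnip3 (r = 0.968) and Pdk1, a pyruvate dehydrogenase kinase gene (r = 0.954). The points share libraries, and the 8 libraries with Vhl deleted stand apart from the rest in Egln1 and Egln3, so these values describe that split. Mif was at 2.87 ± 0.07 in Vhl and 2.44 ± 0.07 in double knockouts. Cited2 was closest to Pfkfb3, a glycolytic regulator (r = 0.707), Ctxn3 (r = 0.691) and Ldha, lactate dehydrogenase A (r = 0.683). Pfkfb3 fell after Bmal1 loss on high-fat diet in both batches (−0.97 ± 0.24 and −1.67 ± 0.20) and stood at −0.06 ± 0.19 in Vhl knockouts, whereas Ldha fell after Bmal1 loss (−0.44 ± 0.09 and −0.52 ± 0.07) and rose in Vhl knockouts (0.55 ± 0.07). Vhl, which had few counts, was closest to Aldh6a1 (r = 0.696), Coa5 (r = 0.695) and Mmadhc (r = 0.678). These 3 genes fell in Vhl knockouts (−0.79 ± 0.10, −0.50 ± 0.07 and −0.17 ± 0.07). They fell in double knockouts as well (−0.51 ± 0.09, −0.33 ± 0.07 and −0.28 ± 0.07). The part of the libraries with Vhl deleted in this likeness was not tested.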

How the data were processed

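RNA of whole gastrocnemius was made into libraries with a QuantSeq 3′ forward kit, per the labels' protocols. The submitters' processing notes name FastQC 0.11.4, STAR 2.6.0, HTSeq and edgeR 3.26.8, and the builds mm10 and GRCm38.p4; the strand setting of the counting is not stated there. The authors deposited raw counts per gene, 1 table per batch, and normalized counts, a signal scaled to a common library size with edgeR, per the submitters' processing notes.

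Here, edgeR 4.0.16 (R 4.3.3) fitted all groups of a batch together: filterByExpr, TMM scaling, robust quasi-likelihood fit, and Benjamini-Hochberg adjustment over 12762 genes in batch 1, 13093 in batch 2 and 12565 in the joint fits. There were 14 comparisons, 8 of a single knockout or diet effect and 6 between effects. The fit was tested on simulated counts first. Counting noise limits Hif3a and Vhl most; a count of 0 allows up to 3 counts. Alternatives were DESeq2 1.42.0, limma 3.58.1 on log2 of the deposited normalized counts plus a pseudocount of 1, RLE or no scaling, other filters, no robust option, a replicate block, the groups of a contrast alone, and omission of mitochondrial transcripts, of 2 chow libraries, or of single libraries. Same-numbered animals were not paired: over 25 pairs the correlation of deviations from group means ran from −0.35 to 0.20.

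All 10 members are named; of each list at most 4 genes with the smallest p in a comparison are named, and for likeness the 3 genes of highest r (average log2 CPM of at least 2, no predicted, Riken or mitochondrial genes). Members and lists were chosen with earlier results of these data known. Gene positions come from GENCODE M21 (GRCm38) and promoters from RefSeq (GRCm38.p6). The count tables also hold 10 annotation columns, not used.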

Additional observations from a re-analysis of the deposited data

Results flagged for a closer look

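Of 90 combinations of a member and a group of 4 to 8 libraries, 10 had 1 library separated from the rest by more than Dixon's 95% limit, where chance alone gives about 1 in 20. Cited2 stood at 127 CPM in batch 2 Bmal1-line control 8 (next 61.4) and at 61.8 CPM in Bmal1 knockout 6 (next 31.7). Egln2 stood at 82.1 CPM in Vhl knockout 2 (next 59.9) and at 70.3 CPM in batch 2 Bmal1 knockout 6 (next 64.9). Egln1 stood at 513 CPM in Vhl knockout 1 (next 463). Vhl stood at 5.73 CPM in batch 1 high-fat control 4 (next 3.39). Hif1an was lowest at 93.4 CPM in double knockout 1 (next 108), and Hif1a at 11.3 CPM in double-line control 2 (next 12.9). Hif3a stood at 0.160 CPM in batch 2 Bmal1 knockout 7 and at 0.291 CPM in double knockout 2, from 2 and 4 counts.

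Tested differences between knockout effects in batch 2 passed for 13 values. The double minus the Bmal1 effect was −0.58 for Hif1a, 0.42 for Epas1, −1.10 for Vhl, 1.32 for Egln1, 4.57 for Egln3 and 1.42 for Cited2. The Vhl minus the Bmal1 effect was 0.43 for Epas1, −1.17 for Vhl, 1.51 for Egln1, 4.70 for Egln3, −0.42 for Hif1an and 1.35 for Cited2. The double minus the Vhl effect was 0.40 for Hif1an.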

How the results depend on the processing

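Of 1390 values for the members and Arntl under alternatives other than leaving out a library, 1257 kept their sign and their side of the threshold, 31 lost the call, 21 gained one and 3 changed sign with a call in either fit. A further 78, called in neither fit and at most 0.27 in size as reported, changed sign only. The rises of Egln3, Egln1 and Epas1 in Vhl and double knockouts and the fall of Cited2 in batch 1 kept their calls under all of these. With no scaling, the median of all genes moved to 0.35 in Vhl knockouts, 0.37 in double knockouts, 0.27 and 0.28 in the double and Vhl minus Bmal1 contrasts, 0.16 in batch 1 Bmal1 knockouts on high-fat diet, 0.12 over both batches and −0.18 between diets in controls; in Vhl knockouts Egln2 turned to 0.31 and Hif1an to 0.01, and in double knockouts Arnt to 0.08. The cause was not tested.

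The number of members called, 1 between diets in controls, became 2 with no scaling and 0 in a fit to those groups alone. It was also 0 with chow control 2 and chow knockout 1 both left out. Between diets in Bmal1 knockouts it went from 1 to 2 in a fit to those groups alone. For the difference of the Bmal1 effect between diets it went from 0 to 1 with no filter. For batch 2 Bmal1 knockouts it went from 1 to 2 with limma and to 0 in a fit to those groups alone. For the double minus the Vhl effect it went from 1 to 0 with no scaling, with the replicate block and in a fit to those groups alone. Leaving out single libraries gave 0 to 1 members between diets in controls, 1 to 2 in batch 1 and 0 to 2 in batch 2 Bmal1 knockouts on high-fat diet, 2 to 4 over both batches, 0 to 1 for the difference between diets and for the departure from the sum, 0 to 2 for the double minus the Vhl effect, 4 to 5 in Vhl knockouts, 5 to 7 in double knockouts, 4 to 6 for the double and 5 to 6 for the Vhl minus the Bmal1 effect. With no scaling the genes called in Vhl knockouts split 5815 higher and 684 lower, against 2320 and 2556, and in double knockouts 6230 and 778, against 2272 and 2366. The split also moved to 1227 and 371 in batch 1 Bmal1 knockouts on high-fat diet (488 and 661), to 107 and 602 between diets in controls (193 and 109), to 1382 and 613 in batch 2 Bmal1 knockouts (909 and 911), to 319 and 206 in chow Bmal1 knockouts (198 and 292), to 118 and 316 between diets in Bmal1 knockouts (219 and 200), to 3264 and 590 and to 2510 and 294 for the Vhl and double minus the Bmal1 effect (1594 and 1717, 1007 and 1184), to 134 and 297 for the departure from the sum (281 and 215), and to 2692 and 789 over both batches (1396 and 1419).

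The replicate block, from numbers that name animals and pair nothing (4 of 25 pairs had a correlation above 0.1), lowered the members called from 6 to 3 for the double minus the Bmal1 effect (Hif1a −0.61, Epas1 0.43 and Vhl −1.43, adjusted p from 0.062 to 0.14), from 6 to 4 for the Vhl minus the Bmal1 effect (Vhl and Hif1an lost), from 5 to 4 in Vhl knockouts (Vhl, adjusted p = 0.053), from 6 to 5 in double knockouts (Arnt, adjusted p = 0.071) and from 3 to 2 over both batches (Egln1, adjusted p = 0.057); over all genes it took batch 2 Bmal1 calls from 1820 to 598. limma was not run on the joint fits, as the normalized tables were scaled separately, and a fit to the groups alone has no separate value for the joint fits or for contrasts that use all groups of a batch.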
